A study of Mus musculus with 8 samples.

Results

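The hypoxia and glycolysis genes are a list of 37 genes that serve glucose uptake, glycolysis, the response to low oxygen and its control. The list was drawn up by gene name, with earlier results of these data known, among them opposite changes in tumor cells and macrophages. All 37 were found among the 24787 genes in the count tables of 8 mouse tumors. The tumors were grown from MC38 cells, a colon carcinoma line of C57BL/6 mice that was injected under the skin of C57BL/6 mice, and the study used 8-week-old female C57BL/6J animals. They were taken 24 hours after mice received saline (n = 3 tumors), free R848 (n = 3) or medium BPD (n = 2), with 1 tumor per mouse. R848 is resiquimod, a small molecule that activates Toll-like receptors 7 and 8. The medium BPD is a bottlebrush prodrug, a polymer that carries R848 on an MPE linker, a linker that the study classed as medium in release rate. CD45+ (immune) and CD45- cells of each mouse were loaded 9:1 onto Seq-Well arrays, arrays of tiny wells that hold 1 cell and 1 barcoded bead each. Transcripts were counted by unique molecular identifiers (UMIs), so that copies made by PCR are not counted again. All 3 groups carried the same transplanted line, so a tumor is a replicate of 1 cell line in 1 mouse strain.

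Cells starved of oxygen stabilize HIF-1α and HIF-2α, transcription factors that are otherwise hydroxylated by the EGLN enzymes and degraded. HIF binds a short DNA core and raises glucose transporters, glycolytic enzymes, lactate export and mitophagy receptors, so that a cell can make ATP without oxygen and spend less on mitochondria. Carcinoma cells use the same enzymes at normal oxygen too, and inflamed macrophages are known to switch toward glycolysis.

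The tumors held 5867590 to 12422614 UMIs, and 9886 of 10791 barcodes passed the limits on genes, UMIs and mitochondrial counts. Marker genes, none of them a member, placed 8615 of these cells in a class. The 1553 MC38-like cells (82 to 410 per tumor) and 5293 monocyte/macrophage-like cells (467 to 951 per tumor) carried most of the counts, followed by 825 NK-like, 391 T-like and 321 DC-like (dendritic) cells. UMIs were summed per tumor and class and are given as CPM, counts per 1e+06 UMIs of the genes tested in that class after TMM scaling of these totals, so each value below is 1 tumor and cells are not replicates. In the MC38-like sums the 4 MC38 markers reached 2190 to 3450 CPM, against 63.6 to 84.3 CPM in the monocyte/macrophage-like sums. Saline replicate 2 stood apart within the monocyte/macrophage-like class. Its counts differed from those of the other saline tumors by a chi-square of 33.4 and 35.9 per degree of freedom, against 5.88 to 9.64 for the other pairs within a treatment. Counts and fold changes of the members in that class against saline, and their median after the prodrug, are also given without it. In the MC38-like sums the pair that differed most was that of the medium BPD tumors, at 9.24 per degree of freedom, against 2.31 to 4.74 for the other pairs within a treatment. In all, 23 barcodes occurred in more than 1 tumor's table (59 of the kept cells).

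The promoters of the list were searched for the HIF core. RefSeq windows of 300 bases (GRCm38.p6, from 250 bases before to 50 after each start) were found for 35 of the 37 genes, in 50 windows, while Bnip3l and Ndrg1 had none in the table. The HIF core was searched as ACGTG or GCGTG on both strands, with overlaps counted, so that the palindrome CACGTG counts as 2 matches. At least 1 match stood in 40 of the 50 windows (80%) and in 43.8% of all 32851 windows. A match describes the letters only, and the members' windows were not matched to the others for base composition. The windows printed here belong to 4 genes lowered in MC38-like cells that have at least 4 matches each, to Pfkfb3, which rose in monocyte/macrophage-like cells, and to Hif1a, whose transcript barely moved in MC38-like cells. Capitals mark the matches, and the strand is the gene's.
Fam162a, chr16:36071512-36071811, minus strand, 6 matches: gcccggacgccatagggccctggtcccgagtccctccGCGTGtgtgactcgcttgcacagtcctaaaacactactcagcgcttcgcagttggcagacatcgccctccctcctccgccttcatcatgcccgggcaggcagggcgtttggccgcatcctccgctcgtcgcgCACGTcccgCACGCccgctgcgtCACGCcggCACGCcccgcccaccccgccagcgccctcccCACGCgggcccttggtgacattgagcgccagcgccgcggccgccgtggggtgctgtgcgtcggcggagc
Bnip3, chr7:138909457-138909756, minus strand, 5 matches: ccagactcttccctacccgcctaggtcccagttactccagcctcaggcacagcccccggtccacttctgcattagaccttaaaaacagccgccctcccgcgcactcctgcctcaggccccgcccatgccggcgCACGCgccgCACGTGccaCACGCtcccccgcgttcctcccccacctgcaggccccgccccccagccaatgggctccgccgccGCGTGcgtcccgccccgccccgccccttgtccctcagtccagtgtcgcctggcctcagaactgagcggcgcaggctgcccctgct
Ankrd37, chr8:45999801-46000100, minus strand, 4 matches: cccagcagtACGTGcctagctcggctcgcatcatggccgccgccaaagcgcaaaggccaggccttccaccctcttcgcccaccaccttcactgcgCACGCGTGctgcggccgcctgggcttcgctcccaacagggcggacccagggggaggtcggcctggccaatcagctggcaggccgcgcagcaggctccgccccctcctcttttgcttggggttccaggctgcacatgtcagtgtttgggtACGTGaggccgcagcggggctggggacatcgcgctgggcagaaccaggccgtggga
P4ha2, chr11:54100674-54100973, plus strand, 4 matches: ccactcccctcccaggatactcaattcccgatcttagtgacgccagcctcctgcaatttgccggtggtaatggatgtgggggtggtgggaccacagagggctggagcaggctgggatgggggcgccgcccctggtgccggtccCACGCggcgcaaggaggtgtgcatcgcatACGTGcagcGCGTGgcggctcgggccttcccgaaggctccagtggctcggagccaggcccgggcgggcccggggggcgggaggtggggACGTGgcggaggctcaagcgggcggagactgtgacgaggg
Pfkfb3, chr2:11502041-11502340, minus strand, 4 matches (its other window has 1): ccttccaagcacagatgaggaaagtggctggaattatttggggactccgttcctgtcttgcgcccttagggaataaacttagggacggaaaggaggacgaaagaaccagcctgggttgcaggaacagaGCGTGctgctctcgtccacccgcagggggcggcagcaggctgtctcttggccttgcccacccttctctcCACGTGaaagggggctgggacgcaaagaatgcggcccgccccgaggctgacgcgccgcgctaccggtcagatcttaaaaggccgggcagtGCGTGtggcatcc
Hif1a, chr12:73907617-73907916, plus strand, 3 matches: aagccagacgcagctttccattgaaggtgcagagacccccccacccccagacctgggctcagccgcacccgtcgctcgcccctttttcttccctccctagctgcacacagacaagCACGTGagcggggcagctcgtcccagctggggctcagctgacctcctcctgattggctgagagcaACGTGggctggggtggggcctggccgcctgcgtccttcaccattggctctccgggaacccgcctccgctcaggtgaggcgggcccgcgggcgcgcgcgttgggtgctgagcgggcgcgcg

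In the printed windows the matches often stood close together. Counted from the start, 4 of the 5 in Bnip3 lay at −117, −108, −107 and −99, and 5 of the 6 in Fam162a lay at −81, −72, −58, −50 and −19. Of the 12 members that fell in MC38-like cells, these 4 had at least 4 matches in a window, and the other 8 had 1 to 3. The other 23 members with a window had 0 to 7, with at least 4 in 4 of them, and the median was 2 in both sets. At least 4 matches stood in 8 of the 50 members' windows (16%) and in 3.86% of all windows, and at least 3 in 15 (30%) and 8.93%.

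In MC38-like cells the list moved down after the medium BPD. Of the 35 members tested, 12 fell against saline and none rose, while 1.36% of the 10603 genes tested were called in either direction and 0.83% fell (edgeR's quasi-likelihood test, adjusted p under 0.05 over all genes tested). The fold change was below 0 in 34 of 35 members, with a median of −0.57 on the log2 scale against 0.0071 over all genes tested. The 12 were the glucose transporter Slc2a1, Pdk1, Bnip3, Fam162a, Egln1, Egln3, Mxi1, Ankrd37, Car9, P4ha2, Ero1l and Ddit4, a transporter, a kinase and 10 genes of the wider low-oxygen program. None of the 7 tested enzymes of upper glycolysis (glucose to triose phosphates) and none of the 6 of lower glycolysis passed the test, although all were below 0, with medians of −0.47 and −0.52. Aldoc and Adm were too sparse to be tested in this class.

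**Figure D1:**
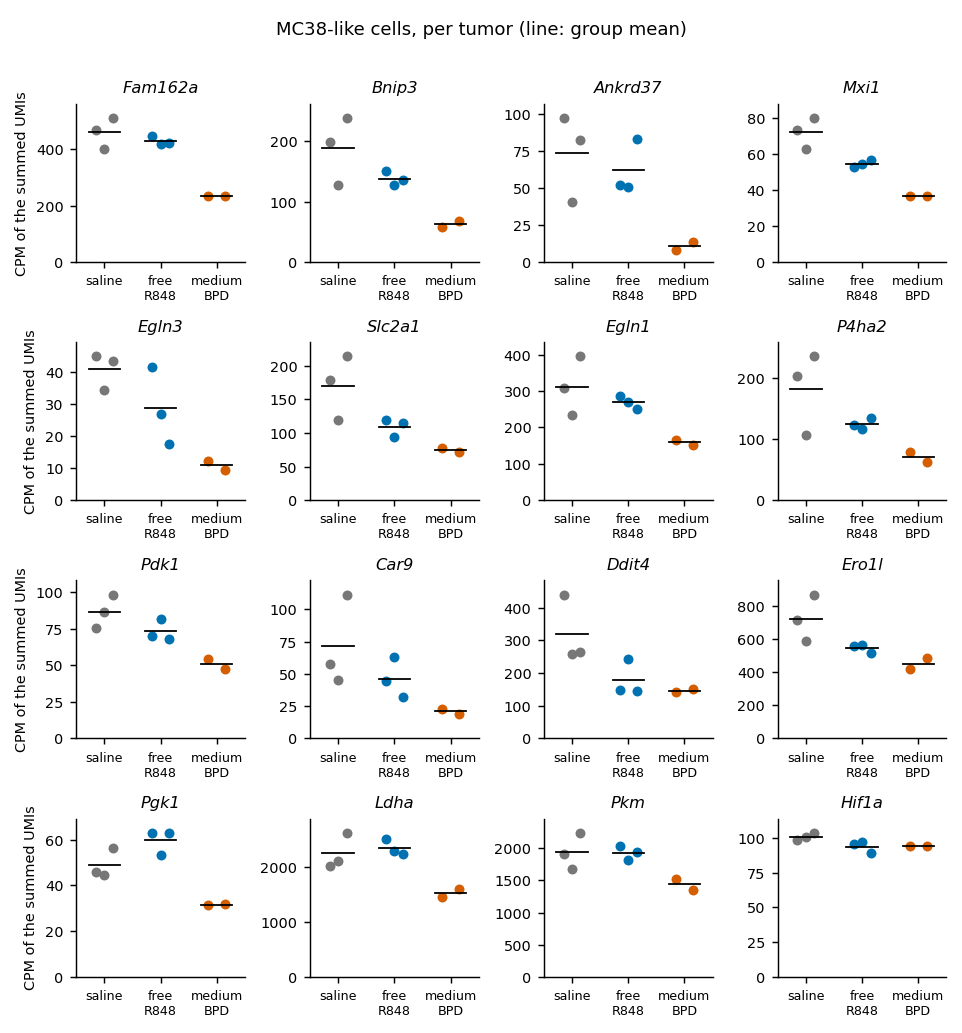
CPM of the summed UMIs of MC38-like cells (vertical axes, each from 0) for 16 members, with 1 point per tumor and a line at the group mean, by treatment. The medium BPD points lie below all saline points in every panel. In Hif1a, which was not called, they sit at 94.1 and 94.4 against 98.5 to 104 CPM. The panels include the 12 members called lower against saline, chosen by that result, and the share of all genes with such separation was not computed.

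Among the mitochondrial members, Bnip3, a receptor that marks mitochondria for autophagy (chr7:138890836-138909519), stood at 198, 128 and 239 CPM in the saline tumors, 150.3, 128 and 136 after free R848 and 58.6 and 68.4 after the medium BPD. Both prodrug tumors were below all 6 others. Bnip3 fell by 1.51 ± 0.21 (log2, SE) against saline (edgeR's quasi-likelihood test, adjusted p = 0.00542). Fam162a, a mitochondrial protein raised by HIF (chr16:36043761-36071594), held 469, 401 and 511 CPM after saline, 448, 420.1 and 422 after free R848, and 236 and 233 after the prodrug. The other 6 tumors lay close together and both prodrug tumors were far below them. It fell by 0.97 ± 0.12 on the log2 scale (adjusted p = 0.00473, the smallest of any member in this contrast). Bnip3l, the paralog of Bnip3, was at 60.6, 44.0 and 90.5 CPM after saline, 46.9, 52.0 and 46.8 after free R848, and 31.7 and 33.1 after the medium BPD. The prodrug tumors were again lowest, but the change of −0.90 ± 0.24 did not pass (adjusted p = 0.0833). Higd1a was at −0.66 ± 0.21, also short of the threshold.

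Among the HIF hydroxylases and further genes of the low-oxygen response, Ankrd37, a small ankyrin-repeat protein raised by HIF (chr8:45996902-46005707), was at 97.2, 40.3 and 82.7 CPM after saline, 51.7, 50.8 and 83.0 after free R848, and 7.81 and 13.6 after the medium BPD. It fell by 2.64 ± 0.39 against saline (edgeR's quasi-likelihood test, adjusted p = 0.00636), and both prodrug tumors were far under the lowest of the others. Egln3, a HIF prolyl hydroxylase, was at 44.8, 34.2 and 43.3 CPM after saline, 41.5, 26.9 and 17.4 after free R848 and 12.2 and 9.51 after the prodrug. The free R848 tumors spread over the gap between the other groups without overlapping the prodrug tumors, and Egln3 fell by 1.92 ± 0.32 against saline (adjusted p = 0.0118). Egln1, the main HIF hydroxylase of most cells, was at 308, 233 and 395 CPM after saline, 287, 269 and 250.2 after free R848 and 167 and 152 after the prodrug, and fell by 0.95 ± 0.18 (adjusted p = 0.0221). Mxi1, an antagonist of Myc, went from 73.4, 62.8 and 80.1 CPM after saline through 52.6, 54.6 and 56.9 after free R848 to 36.4 and 36.8 after the prodrug. Its 3 groups did not overlap at any point, and it fell by 0.95 ± 0.15 against saline (adjusted p = 0.011). Hif1a itself, whose protein rather than transcript is set by oxygen, was at 98.5, 100.6 and 104 CPM after saline, 95.5, 97.2 and 89.0 after free R848, and 94.1 and 94.4 after the medium BPD, a difference of −0.09 ± 0.12 (adjusted p = 0.80). The demethylase Kdm3a was at −0.46 ± 0.13 and did not pass.

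The glucose transporter fell, while the enzymes below it did not pass the test. Slc2a1, which encodes GLUT1 (chr4:119108711-119137983), was at 178, 119 and 214 CPM after saline, 119.6, 94.6 and 114 after free R848 and 77.2 and 72.3 after the medium BPD. Both prodrug tumors were below all others and free R848 overlapped saline by 1 tumor. Slc2a1 fell by 1.15 ± 0.21 against saline (edgeR's quasi-likelihood test, adjusted p = 0.0173). Of the enzymes, lactate dehydrogenase Ldha came nearest the threshold, at 2016, 2113 and 2617 CPM after saline, 2505, 2294 and 2239 after free R848 and 1456 and 1588 after the prodrug (−0.56 ± 0.13, adjusted p = 0.0523). Pyruvate kinase Pkm was at 1912, 1674 and 2241 CPM, then 2034, 1813 and 1942, then 1523 and 1354, in the same order of groups (−0.43 ± 0.13, adjusted p = 0.141). In both genes the prodrug tumors were below the other 6, but by less than in Slc2a1. Pfkfb3, which makes the sugar phosphate that activates phosphofructokinase, was the 1 member above 0, at +0.29 ± 0.25. Pdk1, the kinase that keeps pyruvate out of mitochondria, was at 75.9, 86.3 and 98.4 CPM after saline, 70.2, 81.5 and 68.2 after free R848 and 54.7 and 47.5 after the prodrug. Pdk1 fell by 0.75 ± 0.16 against saline (adjusted p = 0.0327) and its prodrug tumors overlapped no other tumor.

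Of the members that act outside the mitochondrion and glycolysis, P4ha2, a subunit of the enzyme that hydroxylates collagen prolines (chr11:54100095-54131665), was at 203, 107 and 235 CPM after saline, 123, 117 and 134 after free R848 and 78.1 and 61.8 after the medium BPD. It fell by 1.34 ± 0.26 (edgeR's quasi-likelihood test, adjusted p = 0.0235), with saline replicate 2 nearer the free R848 tumors than its own group. Ddit4, an inhibitor of mTORC1, was at 440, 258 and 264 CPM after saline, 149, 242 and 146 after free R848, and 143 and 150.2 after the prodrug. It fell by 1.14 ± 0.25 against saline (adjusted p = 0.0427), and here the free R848 tumors overlapped the prodrug tumors. Car9, a carbonic anhydrase of the cell surface, ranged from 45.0 to 112 CPM after saline and from 32.1 to 62.8 after free R848, with 23.0 and 19.2 after the prodrug (−1.65 ± 0.35, adjusted p = 0.0391). Ero1l, an oxidase of the endoplasmic reticulum, ranged from 590 to 871 CPM after saline and was at 421 and 487 after the prodrug (−0.67 ± 0.15, adjusted p = 0.0496).

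How many members fell depended on single tumors and on the fit. With only the prodrug and saline tumors in the fit 4 members were called (0.472% of all genes), and with no filter on low counts 22 of 37 (3.3% of all genes). Without saline replicate 1 or without medium BPD replicate 2, only Bnip3, Ankrd37 and Fam162a were called, and 7 members were called without saline replicate 3, while 15 were called without saline replicate 2. Over all 20 alternatives, the Ddit4 call was lost in 11 (adjusted p up to 0.154) and the Pdk1 call in 9 (up to 0.197), while Slc2a1, P4ha2, Mxi1, Egln3 and Egln1 lost theirs in 2 to 4. Across the leave-one-out fits the members' median stayed between −0.64 and −0.51. Shares of all genes called are not given for these fits, so their counts show only how the members' calls moved.

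Free R848 gave no call in these cells in the main fit. In 1 alternative, the fit with no filter on low counts, members were called, and their count and the share of all genes are given at the end. No member was called against saline in MC38-like cells and neither was any other gene (0% of 10603 by edgeR's quasi-likelihood test, with 827 genes and 12 members at an unadjusted p under 0.05, and 15 genes but 0 members called by DESeq2). The members' median was −0.22 against −0.0048 over all genes tested, with 28 of 35 below 0. It was −0.36 without saline replicate 2 and −0.12 without saline replicate 3 or with a stricter gate. The uncalled values included Ddit4 (−0.85 ± 0.22), Vegfa, the endothelial growth factor (−0.66 ± 0.15), and the stress gene Ndrg1 (−0.48 ± 0.12). Vegfa was at 167, 160.2 and 199.5 CPM after saline, 90.6, 132 and 107 after free R848 and 112 and 139 after the prodrug, so in this gene both treatments lay below saline and overlapped each other.

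The medium BPD against free R848 sets the prodrug beside its own drug. In MC38-like cells 4 members fell and none rose, while 0.481% of genes tested were called in either direction and 0.189% fell. The log2 changes were −0.88 ± 0.12 for Fam162a (adjusted p = 0.0116), −2.40 ± 0.39 for Ankrd37 (adjusted p = 0.0213), −1.11 ± 0.21 for Bnip3 (adjusted p = 0.0378) and −0.92 ± 0.16 for Pgk1, phosphoglycerate kinase (adjusted p = 0.0262). Pgk1 was at 45.6, 44.5 and 56.4 CPM after saline, 62.8, 53.4 and 62.9 after free R848 and 31.2 and 31.8 after the prodrug, so its free R848 tumors were mostly above saline and its prodrug tumors below both. The members' median was −0.54 against 0.0039 over all genes, with 31 of 35 below 0. Of the 4 members above 0, Pfkfb3 was highest at +0.79 ± 0.25 (adjusted p = 0.165), with 45.5, 54.2 and 26.1 CPM after free R848 against 94.1 and 58.1 after the prodrug, which did not overlap. Vegfa (+0.21 ± 0.16) and Ndrg1 (+0.05 ± 0.13) were also above 0, and none of the 4 passed the test. This contrast shares its prodrug tumors with the one against saline. No member was called without free R848 replicate 1 or 2, 2 were called without free R848 replicate 3, medium BPD replicate 2 or saline replicate 1, and 8 without saline replicate 2.

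The values were also read cell by cell. Each MC38-like cell was thinned to 4000 UMIs, which left out 5 to 35 shallower cells per tumor, and the 18 members outside glucose uptake, glycolysis and the handling of pyruvate and lactate were summed per 10000 UMIs. The 10th percentile of cells was alike in all groups, at 5 to 10, which is near the floor of this measure, so it could hardly show a difference. The median was 30, 22.5 and 37.5 in the saline tumors, 22.5, 21.3 and 20 after free R848 and 18.8 and 20 after the medium BPD. The 90th percentile separated the groups most, at 92.5, 75.0 and 104.5 after saline, 65.0, 62.5 and 65.8 after free R848 and 45.0 and 42.5 after the prodrug. At this upper end the 3 groups did not overlap, while at the 10th percentile they did. Without thinning the 90th percentiles were 72.1 to 97.4, 62.7 to 68.5 and 38.1 to 42.7. For the 19 members of uptake, glycolysis, pyruvate and lactate, the 90th percentile was 152.5, 138.8 and 182.5 after saline, 165, 155 and 155.8 after free R848 and 115 and 116.5 after the prodrug, so here free R848 overlapped saline and the prodrug lay below both. These are descriptions of cells within tumors, with no test over cells.

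**Figure D2:**
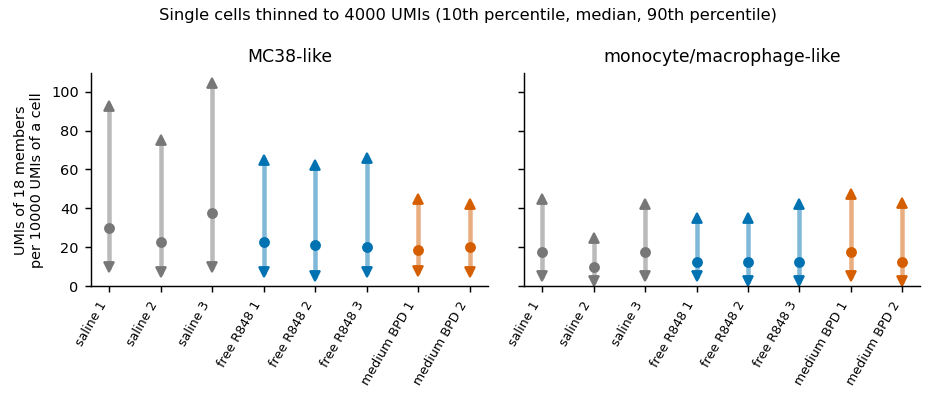
UMIs of 18 members (those outside glycolysis) per 10000 UMIs of a cell, vertical axis, after thinning to 4000 UMIs, for each tumor of the 3 treatments in MC38-like (left) and monocyte/macrophage-like cells (right), with the 10th percentile (downward triangle), median (circle) and 90th percentile (upward triangle) of cells. In MC38-like cells the 90th percentile goes from 75.0 to 104.5 after saline to 42.5 and 45.0 after the medium BPD. In monocyte/macrophage-like cells thinning left out 49 to 432 shallower cells per tumor (432 of 665 in saline replicate 3). There the 90th percentile is 45, 25 and 42.5 after saline, 35, 35 and 42.25 after free R848 and 47.5 and 42.75 after the prodrug. Saline overlaps both treatments, which do not overlap each other.

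Other features of the MC38-like sums were read as well. The 15 monocyte/macrophage markers, with 0 to 2 of them at 0 in each tumor, summed to 444, 488 and 239 CPM after saline, 265, 202 and 274 after free R848 and 167 and 120 after the medium BPD, against 17800 to 24900 CPM in the monocyte/macrophage-like sums. The 11 cell cycle genes summed to 3120, 3500 and 3160 CPM after saline, 3390, 3070 and 2830 after free R848 and 2460 and 2930 after the prodrug, and 1 of the 11 fell against saline (median −0.29). Mitochondrial transcripts made up 1.98 to 3.1% of UMIs, with 2.16 and 2.47% after the prodrug, within the saline range of 1.98 to 2.48%. The part of these features in the members' change was not tested. In summed counts, fewer cells that use a gene and less RNA of it per cell cannot be told apart. Medium BPD replicate 2 supplied 410 of the 1553 cells, and with the same number of cells drawn from each tumor 6 members fell.

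In monocyte/macrophage-like cells few members were called, in both directions. All 37 members were tested against saline after the medium BPD, and 4 fell and 1 rose, while 7.29% of 10625 genes were called in either direction. The median was 0.14 against −0.0056 over all genes, with 23 of 37 members above 0, and 4 of the 5 calls were falls. Without saline replicate 2, the tumor that stood apart, the median was −0.05 with 16 of 37 above 0 and 8 members were called. The share of all genes called in that fit is not given, so whether the members alone gained calls cannot be read from the 8. Leaving out each of the other tumors in turn gave medians from 0.07 (without medium BPD replicate 1) to 0.32 (without saline replicate 3).

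**Figure D3:**
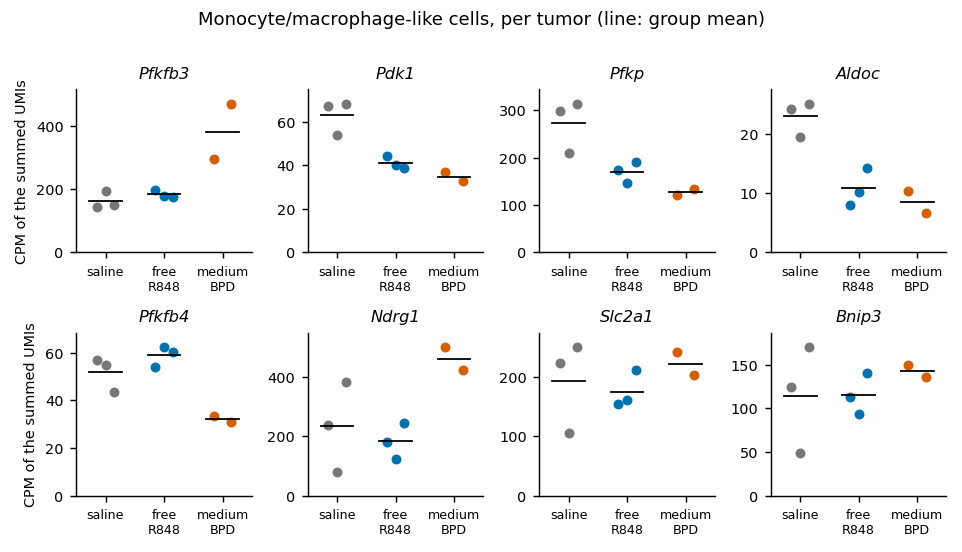
CPM of the summed UMIs of monocyte/macrophage-like cells (vertical axes, each from 0) for the 5 members called after the medium BPD and for Ndrg1, Slc2a1 and Bnip3, with 1 point per tumor and a line at the group mean. Pfkfb3 is higher in both prodrug tumors (295 and 471 CPM) than in all others, and Pfkp, Pdk1 and Pfkfb4 are lower, while saline replicate 2 is the lowest point for Ndrg1, Slc2a1 and Bnip3.

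The regulators of phosphofructokinase went in opposite directions in these cells. Pfkfb3 (chr2:11471433-11554077) was at 143, 195 and 149 CPM after saline, 199.5, 179 and 177 after free R848 and 295 and 471 after the medium BPD. Both prodrug tumors were above all others, though far from each other, and Pfkfb3 rose by 1.23 ± 0.21 against saline (edgeR's quasi-likelihood test, adjusted p = 0.0121) and by 1.05 ± 0.21 against free R848 (adjusted p = 0.0479). Its paralog Pfkfb4 was at 56.8, 54.7 and 43.5 CPM after saline, 54.0, 62.2 and 60.4 after free R848 and 33.6 and 31.0 after the prodrug, below all others, and fell by 0.68 ± 0.15 against saline (adjusted p = 0.0316) and by 0.86 ± 0.15 against free R848 (adjusted p = 0.0332). These 2 were the only members called between the prodrug and its free drug, where 1.6% of genes were called, the median was 0.19 and 25 of 37 were above 0. That median was 0.10 without free R848 replicate 1, 0.12 without free R848 replicate 2 or with a stricter gate, and 0.28 without free R848 replicate 3. Without saline replicate 2, the change against saline was +1.38 for Pfkfb3 and −0.64 for Pfkfb4.

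The other falls were in enzymes and in the pyruvate gate. Pfkp, the platelet form of phosphofructokinase, was at 299.5, 209.6 and 313 CPM after saline, 174, 147 and 190.0 after free R848 and 121 and 133 after the prodrug, with no overlap between any groups. Pfkp fell by 1.11 ± 0.20 against saline (edgeR's quasi-likelihood test, adjusted p = 0.0147). Pdk1 showed the same order, at 67.4, 53.9 and 68.2 CPM, then 44.2, 40.1 and 38.7, then 37 and 32.7, and fell by 0.84 ± 0.15 (adjusted p = 0.0144). Aldoc, the brain-type aldolase, was low throughout at 19.5 to 25.0 CPM after saline, 7.96 to 14.2 after free R848 and 10.3 and 6.70 after the prodrug, and fell by 1.37 ± 0.28 (adjusted p = 0.0256). In Pfkp, Pdk1 and Aldoc the free R848 tumors were also all below saline, at −0.69 ± 0.17, −0.61 ± 0.13 and −1.10 ± 0.24, but no member was called between free R848 and saline (1 of 10625 genes called, 0.00941%, by edgeR, with 3 members and 1296 genes at an unadjusted p under 0.05, and 0 members by DESeq2). Without saline replicate 2, the values of Pfkp, Pdk1 and Aldoc were −1.27, −0.95 and −1.46 after the prodrug and −0.85, −0.72 and −1.22 after free R848, and these 3 members were then called between free R848 and saline. Members were also called there with no filter on low counts, as given at the end.

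The genes that fell furthest in MC38-like cells were not called here. Bnip3 was at 125, 48.6 and 170.0 CPM after saline, 113, 93.2 and 141 after free R848, and 150.1 and 137 after the medium BPD (+0.34 ± 0.41, adjusted p = 0.651; −0.03 without saline replicate 2). Slc2a1 was at 223, 105 and 249 CPM, then 154, 160.3 and 210.5, then 241 and 203 (+0.21 ± 0.32, adjusted p = 0.721; −0.08 without saline replicate 2). In both genes the saline tumors enclosed all others, with saline replicate 2 lowest. Ndrg1 was at 238, 79.5 and 384 CPM after saline, 180.0, 125 and 246 after free R848 and 499 and 423 after the prodrug, above all others (+0.99 ± 0.51, adjusted p = 0.272; +0.57 without saline replicate 2). Adm, the vasodilator adrenomedullin, had 224 UMIs in all kept cells and reached 14.6 and 4.19 CPM after the prodrug against 0 to 4.54 CPM in the other tumors, which was not called.

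These calls depended on single tumors and on the fit. With only the prodrug and saline tumors in the fit 0 were called against saline, and with the replicate block 3 (Pfkp, Pdk1 and Pfkfb3). None remained against saline without saline replicate 1 or without medium BPD replicate 2, and 2 (Pdk1 and Pfkfb3) did without medium BPD replicate 1. Against free R848 none was called without any 1 of the free R848 tumors or without medium BPD replicate 2, 1 without medium BPD replicate 1 or saline replicate 1 or 3, 5 without saline replicate 2 and 1 without the barcodes found in several tumors (an alternative added after the data were seen). The 11 cell cycle genes summed to 985, 1620 and 911 CPM after saline, 674, 727 and 527 after free R848 and 727 and 448 after the prodrug, and the 5 osteoclast markers to 133, 312 and 468 CPM after saline, 597, 583 and 566 after free R848 and 1230 and 994 after the prodrug. Mitochondrial transcripts made up 3.75, 4.17 and 3.90% of UMIs after saline, 4.35, 4.93 and 5.29% after free R848 and 3.14 and 3.55% after the prodrug, with no overlap between groups. The part of these 3 in the members' values was not tested. This class joins monocytes and macrophages. The study reported larger shares of Cd38+Saa3+ monocytes and macrophages with the prodrug than with free R848, and smaller shares of Ly6c-high monocytes and of Spp1+ macrophages. In summed counts, a change in the mix of such cells and one in RNA per cell cannot be told apart.

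Whether the 2 classes differed in their response was tested by an interaction of class with treatment, in a fit that kept each tumor as a block. The list was chosen with such a class difference already seen in these data, so the test is no independent support for it. For the medium BPD against saline, 11 of 37 members differed and all 11 were lower in MC38-like than in monocyte/macrophage-like cells, while 2.6% of 11767 genes differed in either direction and 1.59% in that direction. The median difference over the members was −0.85 (log2) against −0.0023 over all genes, and 34 of 37 were below 0. The 11 were the transporter Slc2a1 (−1.44 ± 0.21, adjusted p = 0.00412), the enzymes Pfkl (−0.75 ± 0.18), Tpi1 (−0.85 ± 0.19) and Pkm (−0.93 ± 0.19), the mitochondrial genes Bnip3 (−2.02 ± 0.27, adjusted p = 0.0022), Bnip3l (−1.37 ± 0.23) and Fam162a (−1.01 ± 0.25), then Egln1 (−0.89 ± 0.19), Ankrd37 (−2.18 ± 0.37), P4ha2 (−2.21 ± 0.35, adjusted p = 0.00537) and Ddit4 (−1.48 ± 0.28). Pfkl, Tpi1, Pkm and Bnip3l differed between classes although none of them was called within either class. Without saline replicate 2, 15 members differed, the median was −0.73 and 33 of 37 were below 0, with Bnip3 at −1.75 and Slc2a1 at −1.28. The share of all genes that differed in that fit is not given. Bnip3, Slc2a1 and P4ha2 were called in all 18 alternatives, while Fam162a lost its call in 10 and Egln1 in 6.

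The monocyte/macrophage-like values behind these differences lay mostly within the saline range or above it. P4ha2 was low, at 11.3, 6.26 and 13.6 CPM after saline, 2.90, 10.5 and 6.72 after free R848 and 20.4 and 16.8 after the prodrug, above all others (+0.90 ± 0.44, edgeR's quasi-likelihood adjusted p = 0.245; +0.61 without saline replicate 2). Bnip3l was at 37.4, 23.9 and 39.0 CPM, then 40.8, 31.4 and 31.2, then 42.4 and 47.3 (+0.44 ± 0.22, adjusted p = 0.261; +0.22 without saline replicate 2). Pkm was at 1555, 1185 and 1887 CPM, then 1787, 1472 and 1793, then 2156 and 2164 (+0.49 ± 0.20, adjusted p = 0.179; +0.33 without saline replicate 2). In these 3 genes both prodrug tumors were the highest of the 8, where in MC38-like cells they were the lowest. Fam162a, at 99.1, 58.1 and 136 CPM, then 70.9, 84.7 and 91.3, then 90.7 and 98.0, stayed within the saline range, as did Egln1 at 136, 88.9 and 158 CPM, then 103, 106 and 130, then 133 and 109. Ankrd37 was at 15.7, 9.17 and 28.8 CPM, then 13.8, 9.81 and 17, then 8.12 and 14.2 (−0.68 ± 0.48, adjusted p = 0.419; −1.04 without saline replicate 2), and its saline and prodrug tumors overlapped. Ddit4 was at 35.1, 18.5 and 31.4 CPM, then 23.2, 45.3 and 38.7, then 27.2 and 45.7, also with overlap. Mxi1 (252, 99.7 and 268 CPM, then 149, 188 and 237, then 151 and 123) and Egln3 (61.0, 12.1 and 67.4 CPM, then 36.7, 38.3 and 82.2, then 62.4 and 54.9) did not differ between the classes past the test. In both, saline replicate 2 was the lowest of all tumors.

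**Figure D4:**
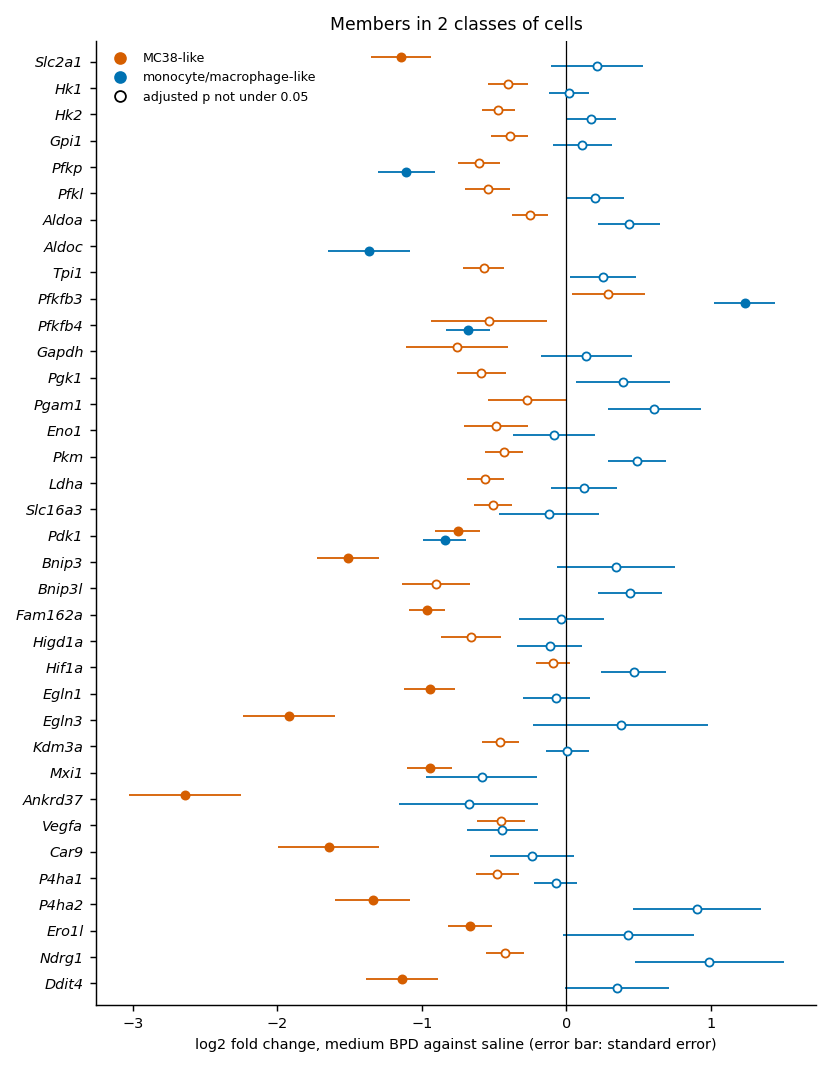
Log2 fold change of each member, medium BPD against saline (horizontal axis, with standard error), in MC38-like (orange) and monocyte/macrophage-like cells (blue), ordered by role, filled where the adjusted p is under 0.05, without Adm. In MC38-like cells all tested members but Pfkfb3 lie left of 0, and in monocyte/macrophage-like cells they lie on both sides, from −1.37 for Aldoc to +1.23 for Pfkfb3.

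For the medium BPD against free R848, 3 members differed between the classes, with 0.646% of genes differing: Ankrd37 (−2.24 ± 0.37, adjusted p = 0.0127), Bnip3 (−1.45 ± 0.27, adjusted p = 0.023) and P4ha2 (−2.31 ± 0.37, adjusted p = 0.0106). For free R848 against saline none did in the main fit, and neither did any other gene (0%, with 7 members and 1090 of 11767 genes at an unadjusted p under 0.05, and 0 members by DESeq2). The count against saline was 4 without medium BPD replicate 2, 5 without saline replicate 1, 7 without free R848 replicate 2 and 17 without saline replicate 3. Against free R848 it was 0 without free R848 replicate 3 or either prodrug tumor, 1 without free R848 replicate 1, 5 without saline replicate 3 and 15 without saline replicate 2.

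The classes also differed before treatment. In the saline tumors 24 of 37 members differed between MC38-like and monocyte/macrophage-like cells, 12 each way. Of all genes 71.9% did, so the members did not differ more often than genes at large. MC38-like cells were higher in P4ha2 (+3.42 ± 0.22), Ddit4 (+2.83 ± 0.18), Car9 (+2.21 ± 0.26), Ero1l (+1.9 ± 0.24), Fam162a (+1.62 ± 0.16) and Ankrd37 (+1.42 ± 0.20). Monocyte/macrophage-like cells were higher in Aldoc (−4.53 ± 0.37), Pfkfb4 (−2.86 ± 0.20), Pfkfb3 (−2.13 ± 0.23), Mxi1 (−2.07 ± 0.20), Vegfa (−1.80 ± 0.17) and Hif1a (−1.63 ± 0.15). These differences are scaled so that the median gene is near 0 between the classes (0.0181), which the CPM values of a class are not.

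Among the immune classes, DC-like cells showed a rise of Pfkfb3 and a fall of Pfkp under both treatments. Only 20 members could be tested, in 2 saline tumors, since saline replicate 2 held 6 such cells and was dropped. Pfkfb3 was at 338 and 271 CPM after saline, 907, 486 and 567 after free R848 and 837 and 879 after the medium BPD, and rose by 1.08 ± 0.28 and 1.46 ± 0.29 (edgeR's quasi-likelihood test, adjusted p = 0.0206 and 0.00171). Pfkp was at 656 and 455 CPM, then 206, 200.5 and 295, then 226 and 127, and fell by 1.28 ± 0.29 and 1.60 ± 0.31. Ldha, at 1132 and 1112 CPM, then 418, 586 and 423, then 395 and 503, fell by 1.24 ± 0.23 and 1.34 ± 0.25. In all 3 genes both treatments lay on the same side of saline with no overlap, and they overlapped each other. After the prodrug Ndrg1 also rose (589 and 1093 CPM against 1928 and 1825, +1.20 ± 0.26) and Vegfa fell (163 and 194 CPM against 95.8 and 42.5, −1.19 ± 0.38). Against these 3 calls after free R848 and 5 after the prodrug, 7.25% and 10.4% of 3738 genes were called. Between prodrug and free R848 no member was called in the main fit or by DESeq2, with 2 members and 410 genes at an unadjusted p under 0.05 and 0.91% of genes called. The monocyte/macrophage markers summed to 1710 and 1700 CPM after saline, 958, 1340 and 1110 after free R848 and 1700 and 1900 after the prodrug. Mitochondrial transcripts made up 3.78 and 4.40% of UMIs after saline, 5.34, 5.60 and 6.02% after free R848 and 4.48 and 5.35% after the prodrug, all treated tumors above both saline tumors. The part of both was not tested. The calls also depended on how the class was drawn. A stricter gate left 0 calls after free R848 and 1 (Ndrg1) after the prodrug, and clusters in place of the gate gave 0 and 3, with Pfkp and Ndrg1 among the 3. The members' median for free R848 against saline was −0.71 with the gate and −0.01 with clusters, and for the prodrug −0.27 and +0.27. For the prodrug it was −0.70 without medium BPD replicate 2, −0.43 without saline replicate 3 and −0.11 with the stricter gate. Without saline replicate 1 the counts were 1 (Ldha) and 2 (Ldha and Pfkfb3), and without saline replicate 3 they were 5 and 4, with 1 between prodrug and free R848.

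In NK-like cells 1 member, Ndrg1, rose after the prodrug. It was at 146, 134.5 and 155 CPM after saline, 180.1, 167 and 223 after free R848 and 299.6 and 491 after the medium BPD, with all groups apart. It rose by 1.37 ± 0.20 against saline (edgeR's quasi-likelihood test, adjusted p = 0.000838) and by 1.00 ± 0.20 against free R848 (adjusted p = 0.0231). It was the 1 of 31 tested members called in either contrast, where 1.15% and 0.491% of 7946 genes were. The members' median was 0.48 against saline (28 of 31 above 0; −0.0128 over all genes) and 0.39 against free R848 (30 of 31), while free R848 against saline gave 0.08, with no member and no gene called (0%; 2 members and 337 genes at an unadjusted p under 0.05; 0 by DESeq2). Pkm, with 1354, 1260.0 and 1396 CPM after saline, 1605, 1601 and 1840.0 after free R848 and 2051 and 1850.0 after the prodrug, did not pass against saline (+0.55 ± 0.15, adjusted p = 0.0814). The monocyte/macrophage markers summed to 1910 to 2180 CPM after saline, 1910 to 2270 after free R848 and 1960 and 2100 after the prodrug. The 7 NK markers summed to 3200 to 6010 CPM after saline, 5580 to 6840 after free R848 and 12600 and 7730 after the prodrug, and their part was not tested. Medium BPD replicate 2 held 46 such cells. Without it or without free R848 replicate 1 or 2, Ndrg1 was not called against free R848, and without medium BPD replicate 1 the counts were 4 and 2, and without saline replicate 1 the count against saline was 2.

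T-like cells gave no call in the main fit. Of 29 members tested, none was called in any of the 3 contrasts by edgeR or DESeq2, with 2 members in each and 213, 294 and 333 genes at an unadjusted p under 0.05, and 0%, 0.038% and 0.0569% of 5269 genes were called for free R848 against saline, the prodrug against saline and the prodrug against free R848. The medians were −0.22, −0.17 and −0.05, and leaving out each tumor in turn moved them from −0.32 to −0.07, from −0.29 to −0.09 and from −0.11 to 0.15. This class held 15 to 85 cells per tumor. In counts simulated for it, prodrug against saline, 10 of 100 changes of 2-fold and 68 of 100 of 4-fold were recovered. The absence of a call therefore does not show the absence of a change.

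**Figure D5:**
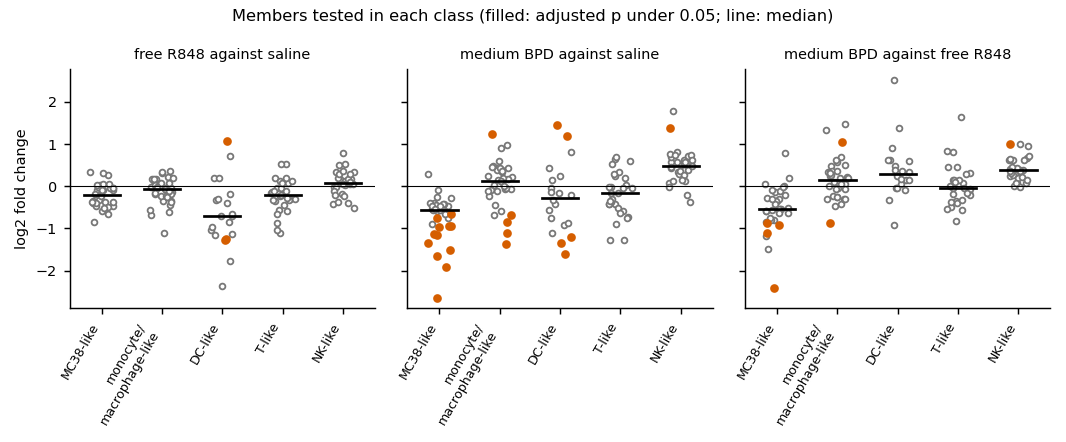
Log2 fold change (vertical axis) of the members tested in each class of cells (horizontal axis), for the 3 contrasts, without Adm; filled points have an adjusted p under 0.05 and lines are medians. The MC38-like points lie mostly below 0 after the medium BPD in both contrasts, with medians of −0.57 and −0.54, and the NK-like points mostly above it, with 0.48 and 0.39.

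Other genes of the pathway were mostly not called in MC38-like cells. Of 60 other genes of oxygen sensing and sugar metabolism, 48 were tested, and after the prodrug against saline 1 rose, 0 fell and 30 were below 0, with a median of −0.13. The 1 was Angptl4, a secreted inhibitor of lipoprotein lipase, at 17.5, 54.5 and 59.0 CPM after saline, 86.4, 54.2 and 72.9 after free R848 and 138 and 102 after the prodrug (+1.51, adjusted p = 0.0474), where 1.36% of all genes were called. None was called after free R848 or between the prodrug and free R848. Of 49 tested in monocyte/macrophage-like cells, 7 rose after the prodrug and 1 fell, where 7.29% of all genes were called. Egln2, a further HIF hydroxylase, rose from 65.3, 78.0 and 70.0 CPM after saline to 181 and 137 (+1.17). Nos2, the inducible nitric oxide synthase, went from 7.85, 20.7 and 34.8 CPM to 237 and 483 (+4.14), and Plin2, a coat protein of lipid droplets, from 269, 265 and 380 CPM to 906 and 1230 (+1.81). Gbe1, G6pdx and Lox were among the others that rose, and the transporter Slc2a6 fell from 27.5 to 30.2 CPM to 8.66 and 9.21 (−1.69). Egln2, Nos2, Lox and Slc2a6 were called against free R848 too. Plin2 rose in NK-like and DC-like cells as well, and Egln2 rose in the latter, where the pentose phosphate enzymes Tkt and Taldo1 fell. None of 25 was called in T-like cells.

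Several members are read less surely. The last 400 bases of Gapdh and Eno1 share 87.7% and 83.8% of their 50-base stretches with other genes of the annotation, and Gapdh had 737 UMIs in all kept cells, so reads of both may have been split or dropped by the counting. Adm (224 UMIs), Pgam1 (788), Car9 (1408), Aldoc (1599), Ankrd37 (1719), Pfkfb4 (2139), Higd1a (2479) and Pgk1 (2604) were also low. Nothing in the sources used here says which tumors shared a sequencing run, so run and treatment cannot be told apart. The tumors of a group are separate mice, and p-values measure the spread between them.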

How the data were processed

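Raw UMI counts per gene and barcode, deposited by the authors as 1 table per tumor, were the only unit used. Per the labels and the study's methods they come from Seq-Well libraries. The processing notes name mm10 and bcl2fastq, and the aligner and annotation are not given in the sources used here. Barcodes with over 400 and under 10000 genes, under 50000 UMIs and at most 15% mitochondrial UMIs were kept. Cells were put in classes by marker scores, with cuts set after the score histograms were seen, 2 marker symbols absent, and 492 cells in several and 779 in no class left out. Of 8383 cells so classed, 8226 had the same class by clustering (scanpy 1.11.5). The number of cells within 0.1 of a cut was 131 MC38-like, 286 monocyte/macrophage-like, 90 DC-like, 95 T-like and 178 NK-like. Scrublet marked 100 cells (1.01%), which were kept. Counts were summed per tumor and class (at least 10 cells) and tested with edgeR 4.0.16 (R 4.3.3, TMM scaling, filterByExpr, quasi-likelihood test, Benjamini-Hochberg adjustment over all genes tested, threshold 0.05), with all 8 tumors in a fit (7 for DC-like cells) and CPM by TMM-scaled totals of the genes tested. The standard error given with a fold change was derived from it and its F statistic. DESeq2 1.42.0, RLE factors, other filters, gates, doublets, a replicate block and leaving out each tumor were alternatives. Members described in full were those called in a contrast of the 2 main classes or in the class-by-treatment term, at most 16 by smallest p. Vegfa, Ldha, Hif1a, Car9, Ero1l, Aldoc and Ndrg1, and the genes named in other classes, were added after their values were seen. Members and lists were chosen with earlier results of these data known. Scripts were tested on simulated data. Some genes of the wider pathway lists are not reported here by name.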

Additional observations from a re-analysis of the deposited data

Results flagged for a closer look

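The response of 14 member and contrast pairs differed between MC38-like and monocyte/macrophage-like cells, by the class-by-treatment term of edgeR's quasi-likelihood test with the tumor as a block. They were 11 of 37 members for the medium BPD against saline, where 2.6% of 11767 genes differed, and 3 of 37 against free R848, where 0.646% did. For the medium BPD against saline the log2 difference, MC38-like minus monocyte/macrophage-like, was −2.18 for Ankrd37, −2.02 for Bnip3, −1.37 for Bnip3l, −1.48 for Ddit4, −0.89 for Egln1, −1.01 for Fam162a, −2.21 for P4ha2, −0.75 for Pfkl, −0.93 for Pkm, −1.44 for Slc2a1 and −0.85 for Tpi1. For the medium BPD against free R848 it was −2.24 for Ankrd37, −1.45 for Bnip3 and −2.31 for P4ha2. The contrasts share their prodrug tumors, and the list was chosen with a difference between these classes already seen in these data.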

How the results depend on the processing

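Of 375 recomputed counts of members called, 298 stayed within 1.5 times the reported count and 77 did not, while of the recomputed fold changes of named members 489 kept their direction and side of the threshold, 133 lost the call and 0 reversed. With no filter on low counts the counts for free R848 against saline, the prodrug against saline and the prodrug against free R848 were 5, 22 and 15 in MC38-like cells, 4, 9 and 7 in monocyte/macrophage-like cells, and 1, 20 and 14 for the difference between these classes, where 0.693%, 3.3% and 2.54%, 2.77%, 8.38% and 4.36%, and 0.933%, 3.58% and 1.58% of all genes were called. That setting also gave 1 for the prodrug against free R848 in DC-like and in T-like cells, and 5 and 2 for the prodrug against saline and free R848 in NK-like cells. DESeq2 gave 11 for the prodrug against free R848 in MC38-like cells, 6 for the class difference there and 2 for the prodrug against saline in NK-like cells, where RLE factors also gave 2. With only the 2 groups compared in the fit, the prodrug against saline gave 4 calls for MC38-like and 0 for monocyte/macrophage-like cells, and the prodrug against free R848 gave 5 in the latter. The same number of cells per tumor gave 6 in MC38-like cells and 6 for the class difference, prodrug against saline. A stricter gate gave 2, 0, 0 and 1 for the prodrug against free R848 in MC38-like, monocyte/macrophage-like and NK-like cells and for the class difference, and 0 and 1 for free R848 and the prodrug against saline in DC-like cells, where clusters in place of the gate gave 0 and 3. Macrophage-like cells alone, and the fit without barcodes found in several tumors (chosen after seeing the data), gave 0 and 1 for the prodrug against free R848. The cause was not tested.

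Deviations of same-numbered tumors from their group means had correlations over 7 pairs from −0.157 to 0.268 in the MC38-like sums. In those of monocyte/macrophage-like cells they ran from −0.235 to 0.173. The 2 prodrug tumors deviate in mirror image, so the pairs are not independent. Such values cannot show whether same-numbered tumors shared an array or a run. With the replicate block, 9 members were called for the prodrug against saline and 2 against free R848 in MC38-like cells, and 3 and 0 in monocyte/macrophage-like cells.

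Leaving out each tumor in turn gave, for free R848 against saline, the prodrug against saline and the prodrug against free R848, 0 to 0, 3 to 15 and 0 to 8 calls in MC38-like cells, 0 to 3, 0 to 8 and 0 to 5 in monocyte/macrophage-like cells, 1 to 5, 2 to 5 and 0 to 1 in DC-like cells, 0 throughout in T-like cells, 0 to 0, 1 to 4 and 0 to 2 in NK-like cells, and 0 to 0, 4 to 17 and 0 to 15 for the class difference. The class comparison in saline gave 22 to 25. A fit that leaves 1 prodrug tumor assumes that it varies like the other groups. Shares of all genes called are not given for the leave-one-out fits here or above. Bnip3 and Ankrd37 were called for the prodrug against saline in MC38-like cells in all 20 alternatives, with fold changes from −1.76 to −1.21 and from −3.59 to −2.29. T-like cells numbered 15 to 85 and DC-like cells 6 to 87 per tumor, and the tumor with 6 was left out of the DC-like fit.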
